A study of Rattus norvegicus with 8 samples.

Results

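The 9 genes described here are Nqo1, Gclc, Gclm, Hmox1, Txnrd1, Srxn1, Gpx1, Cat and Sod1, which are targets of the transcription factor NRF2 or enzymes that remove reactive oxygen species. They were chosen by name, and every non-control probe whose transcript accession maps to one of the names was taken. This gave 14 of the 41012 probes on the array, and 9 of the 13458 genes named on it. Testing required a signal well above background, in Cy3 or Cy5, on 4 or more of the 8 arrays. Of the 14 probes, 13 passed, against 26965 of all probes. The probe that did not pass was the second for Srxn1, which only the older array annotation names as Srxn1 and which was well above background in 1 lean vehicle RNA alone. It was not tested, and Srxn1 is described from its other probe, named so only by the newer annotation.

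Liver RNA came from male Zucker diabetic fatty rats labelled as 12 weeks old. The groups were obese rats (fa/fa, lacking a working leptin receptor) given testosterone undecanoate (TU), lean rats (fa/+, carriers of the same mutation) given TU, obese rats given vehicle and lean rats given vehicle, with 4 samples each. TU is a long-acting testosterone ester, given subcutaneously in a dose of 20 mg/kg during a 4-week treatment, and the vehicle was a propylene glycol mix. Each of the 8 dual-colour oligonucleotide arrays carried TU RNA in Cy5 and vehicle RNA in Cy3 from rats of 1 genotype. The labels call the arrays biological replicates without saying if each RNA is that of 1 animal, so the p-values measure the spread between these samples. No array had its dyes exchanged, so TU and the Cy5 dye cannot be told apart. All obese arrays lay on 1 slide with its own scan and all lean arrays on another, so genotype, slide and scan cannot be told apart either.

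NRF2, encoded by Nfe2l2, is held in the cytoplasm by KEAP1 and degraded. Oxidants and electrophiles modify KEAP1, and NRF2 then enters the nucleus, pairs with a small MAF protein and binds antioxidant response elements. In liver its targets make glutathione, reduce quinones, recycle thioredoxin and break down haem, while catalase, glutathione peroxidase and superoxide dismutase remove peroxide and superoxide and are expressed at high basal levels.

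The core of the antioxidant response element, TGACNNNGC, was searched on both strands of the RefSeq promoter windows (GRCr8, 250 bases before to 50 after a gene start). It was found in 4038 of 33469 windows, or 12.1%. Of the 9 genes, 8 matched a window and Hmox1 did not. Among their 9 windows 2 held the core, that of Gclm and 1 of the 2 windows of Txnrd1. The surrounding 57 bases of both are shown because they hold the core that was searched, which is given in capitals. In both it lies on the strand opposite to the gene, and it begins at position -172 from the start of Gclm and -78 from that start of Txnrd1. These are matches of letters and not measured binding sites. Sequence outside the windows was not searched, so a window without the core does not show that its gene lacks the element.
Gclm, chr2:213031939-213031995, plus strand: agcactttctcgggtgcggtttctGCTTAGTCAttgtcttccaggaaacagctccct
Txnrd1, chr7:22755950-22756006, minus strand: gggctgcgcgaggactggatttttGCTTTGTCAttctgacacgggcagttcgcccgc

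Hepatocyte markers were bright in every RNA: the mean log2 level of the 9 listed genes was 16.3 to 17.3 in obese TU, 16.9 to 17.3 in lean TU, 16.3 to 17.3 in obese vehicle and 16.6 to 16.8 in lean vehicle. On obese arrays 50.4% to 60.6% of probes lay well above background in Cy5 and 58.4% to 62.1% in Cy3, and on lean arrays 53.6% to 57.6% in Cy5 and 62.4% to 69.1% in Cy3. The log2 ratios of obese replicate 2 had an SD of 0.464 over probes, against 0.106 to 0.252 on the other 7 arrays. That array also gave the value farthest from 0 among the obese arrays for 11 of the 13 probes, and obese TU means that move by over 1.5 times without it are given both ways. No spot of the 9 genes was saturated. Nqo1, Gclm and Srxn1 were dim, with median signals 15 to 66 units over the local background, so their log2 ratios are compressed towards 0 by the offset of 50 added in background correction.

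What TU did to these genes in obese liver was the first comparison. The log2 ratio of TU over vehicle lay below 0 on all 4 obese arrays for Nqo1, Gclc and Hmox1, and above 0 on all 4 for both probes of Gpx1 and both of Sod1. None of the 13 probes passed limma at an adjusted p under 0.05, where 0.0111% of all probes did (3 of 26963). At an unadjusted p under 0.05 there were 6 of the 13, against 12.7% of all probes. They were those of Gclc, Gpx1, Cat and Sod1.

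Among the genes of glutathione synthesis, Gclc, the catalytic subunit of glutamate-cysteine ligase, had log2 ratios of -0.60, -0.84, -0.015 and -0.42 on obese replicates 1 to 4. Its mean was -0.47 ± 0.13 (SE of the limma fit, n = 4, 1.38-fold lower, adjusted p = 0.335). Gclm, the modifier subunit of the same enzyme, stood at 0.10 ± 0.051 with 3 of 4 arrays above 0, or 0.047 without replicate 2. The catalytic and modifier subunits thus had means of opposite sign, and neither passed.

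Nqo1, a quinone reductase and a much-used marker of NRF2 activity, had obese ratios of -0.077, -0.22, -0.00034 and -0.030. The mean was -0.082 ± 0.047 (adjusted p = 0.450), or -0.036 without replicate 2. Hmox1, the inducible haem oxygenase, had ratios of -0.10, -0.82, -0.065 and -0.31 with a mean of -0.32 ± 0.15 (adjusted p = 0.401), or -0.16 without replicate 2. The Hmox1 probe is printed 10 times on each array, and the SD of the ratio over its 10 spots was 0.0218 to 0.165, below the SD of 0.35 between the 4 obese arrays.

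The 3 probes of Txnrd1, the cytosolic thioredoxin reductase, are numbered here from the brightest. They stood at -0.020 ± 0.11, -0.14 ± 0.11 and -0.20 ± 0.16 in obese liver, each with arrays on both sides of 0, and without replicate 2 at -0.091, -0.032 and 0.012. Srxn1, which restores overoxidized peroxiredoxins, stood at 0.089 ± 0.054, or 0.034 without replicate 2. None of these 4 probes had an unadjusted p under 0.05.

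Of the enzymes that act on superoxide and peroxide, Gpx1, the cytosolic glutathione peroxidase, had obese ratios of 0.20, 0.37, 0.11 and 0.13 on its first probe and 0.54, 0.42, 0.096 and 0.41 on its second. The means were 0.20 ± 0.069 (adjusted p = 0.365) and 0.37 ± 0.091 (1.29-fold, adjusted p = 0.311). Sod1, the copper and zinc superoxide dismutase, stood at 0.26 ± 0.079 and 0.18 ± 0.067 (adjusted p = 0.354 and 0.376). Catalase (Cat), the peroxisomal enzyme that splits hydrogen peroxide, had ratios of -0.47, -1.44, 0.033 and -0.14. Replicate 2 alone lay beyond -0.5, and the mean of -0.51 ± 0.21 (adjusted p = 0.389) was -0.19 without it.

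**Figure D1:**
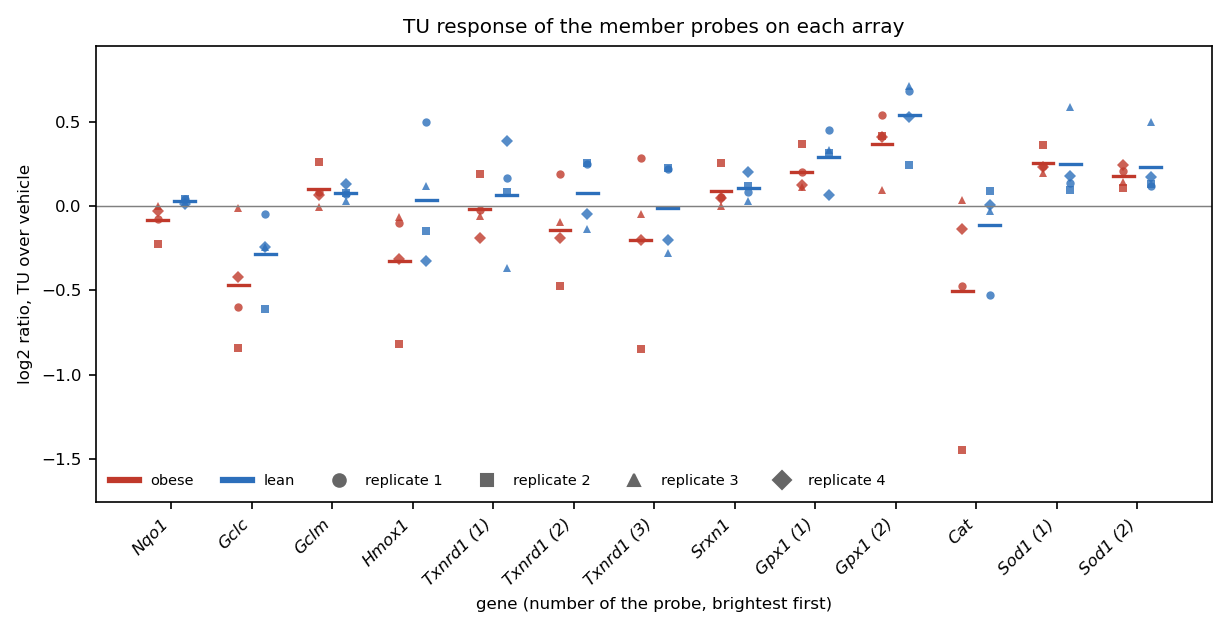
Log2 ratio of TU over vehicle for the 13 tested probes (y axis) on each array, obese in red and lean in blue, with the marker shape giving the replicate and the bar the mean of 4 arrays. All obese and lean points of Gclc lie below 0 and all those of Gpx1 and Sod1 above 0, and obese replicate 2 is the lowest for Cat at -1.44.

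The same comparison was made in lean liver. No probe passed (0 of 13), where 0.190% of all probes did (51 of 26897). At an unadjusted p under 0.05 there were 4 of the 13, both probes of Gpx1 and both of Sod1, against 14.9% of all probes. Gpx1 came closest to the threshold. Its lean ratios were 0.45, 0.32, 0.33 and 0.062 on the first probe (mean 0.29 ± 0.069, adjusted p = 0.118) and 0.68, 0.24, 0.71 and 0.53 on the second (0.54 ± 0.091, 1.46-fold, adjusted p = 0.0709). Without obese replicate 2, which enters the shared estimate of the spread, both probes passed (adjusted p = 0.0397 and 0.0232). The second also passed from the lean arrays alone (0.0426) and without background correction (0.48, adjusted p = 0.0401).

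Sod1 had lean ratios of 0.14, 0.097, 0.58 and 0.18 on its first probe and 0.12, 0.13, 0.50 and 0.17 on its second, with means of 0.25 ± 0.079 and 0.23 ± 0.067 (adjusted p = 0.200 and 0.175). Replicate 3 was the highest on both. The sign for these bright enzymes depended on the scaling. When arrays were only centred on their medians, with no loess step, the lean median over probes was -0.21 and the lean calls were 318 higher and 6265 lower, against 31 and 20 after loess. There both Sod1 probes (-0.17 and -0.20) and the first Gpx1 probe (-0.12) lay below 0, while the second Gpx1 probe stayed above it (0.12). The 4 probes of Gpx1 and Sod1 were among the brightest, with 0.115% to 0.363% of passing probes as bright. Of the 117 probes with a mean log2 intensity of 16 or more, 81.2% lay above 0 in obese and 88% in lean liver, with medians of 0.21 and 0.30. The part of brightness in the ratios of Gpx1 and Sod1 was not tested.

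Gclc was below 0 on all 4 lean arrays as well, at -0.050, -0.61, -0.24 and -0.24 (mean -0.29 ± 0.13, adjusted p = 0.344). It stood at -0.58 with an adjusted p of 0.0278 under median centring, where most calls were lower. The other lean means were 0.031 ± 0.047 for Nqo1, 0.076 ± 0.051 for Gclm, 0.034 ± 0.15 for Hmox1, 0.11 ± 0.054 for Srxn1 and -0.12 ± 0.21 for Cat. The Txnrd1 probes stood at 0.065, 0.079 and -0.0093. With median centring the lean means of Nqo1 (-0.042), Hmox1 (-0.44), Srxn1 (-0.069) and the first 2 Txnrd1 probes (-0.45 and -0.40) changed sign. The third Txnrd1 probe, already below 0, stood at -0.45. Of the 13 obese means the first Txnrd1 probe alone changed sign (0.091). Hmox1 ran from -0.33 to 0.49 over the lean arrays, so its arrays disagreed in sign.

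Whether the response differed between the genotypes was tested as the obese minus lean difference. None of the 13 probes passed or had an unadjusted p under 0.05, where 0.00372% of all probes passed (1 of 26895) and 7.6% had an unadjusted p under 0.05. For Nqo1, a dim probe, the obese arrays lay below 0 and the lean arrays above it at 0.042, 0.043, 0.025 and 0.013. The gap between the nearest obese and lean arrays was 0.014. How many of all probes separated in this way was not counted. The difference of -0.11 ± 0.066 had an adjusted p of 0.70, and with median centring the lean mean was -0.042. The sizes furthest from 0 were those of Cat (-0.39 ± 0.30) and Hmox1 (-0.36 ± 0.21), whose arrays overlapped and whose differences were 0.44 and 0.22 with median centring. Under that setting the median difference over all probes was 0.21. The Sod1 probes then differed by 0.98 and 0.91 and the Gpx1 probes by 0.89 and 0.74, with none called. Their obese means there were 0.81 and 0.71 for Sod1, and 0.77 and 0.87 for Gpx1.

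Obese and lean livers were then compared within each channel. Under TU, Hmox1 was lower in obese liver and the second Txnrd1 probe higher, and these were the 2 of 13 probes called (15.4%), against 20.7% of all probes. By direction this was 1 higher and 1 lower, where 12.1% of all probes were called higher and 8.56% lower. Under vehicle the second and the third Txnrd1 probes were higher, again 2 of 13 (15.4%) against 15.3% of all probes, of which 8.19% were higher and 7.09% lower. At an unadjusted p under 0.05 there were 5 of 13 in each, against 34.3% of all probes under TU and 31.6% under vehicle. The members' shares of calls are close to or below those of all probes, so the count does not set these genes apart in either channel. Without obese replicate 1 the TU count was 5, 1 higher and 4 lower.

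Hmox1 had log2 levels of 8.86, 8.71, 8.79 and 8.62 in obese TU livers, against 9.26, 9.27, 9.07 and 9.31 in lean TU livers. The groups did not overlap, and all 4 obese values lay below the lowest lean value. The share of all probes whose obese and lean levels did not overlap was not counted in either channel. The difference was -0.48 ± 0.077 (1.39-fold lower, adjusted p = 0.00486). Under vehicle the levels were 8.96, 9.53, 8.86 and 8.94 in obese livers, against 8.76, 9.42, 8.94 and 9.63 in lean livers, which overlapped (-0.12 ± 0.23, adjusted p = 0.764). Whether the difference under TU departs from that under vehicle is the same contrast as the obese minus lean response, which was not past the threshold (-0.36 ± 0.21, adjusted p = 0.701). The call under TU held without each single array and was lost with no normalization between arrays (-0.28, adjusted p = 0.813), where the median of all probes lay at 0.51.

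Hmox1 is strongly expressed by macrophages that clear red cells, so the macrophage markers are given beside it. Of the 10 listed Kupffer cell and macrophage markers, all were measured, 2 were called lower in obese than lean liver under TU and none higher, where 8.56% of all probes were called lower. Of the 10, 6 lay above 0, with a median of 0.043. The 2 called were the Kupffer cell lectin Clec4f (-0.90 ± 0.094, adjusted p = 0.000929) and the complement subunit C1qa (-1.18 ± 0.22, adjusted p = 0.00908). The mean log2 level of the 10 was 10.2 to 10.72 in obese TU, 10.6 to 10.8 in lean TU, 10.6 to 10.97 in obese vehicle and 10.6 to 11.03 in lean vehicle. Under vehicle none of the 10 was called, with Clec4f at -0.67 and C1qa at -0.89 (adjusted p = 0.0753 and 0.0511). Their part in the Hmox1 difference was not tested, and in bulk liver fewer cells of a type and less RNA per cell cannot be told apart.

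Txnrd1 was read by 3 probes of the same transcript accession that disagreed. The second had vehicle levels of 9.53, 10.04, 9.38 and 9.68 in obese livers, against 8.82, 9.03, 9.23 and 8.90 in lean livers, with no overlap (0.67 ± 0.15, 1.59-fold, adjusted p = 0.0278). The third had 9.49, 9.77, 9.04 and 9.08 in obese livers, against 8.52, 8.77, 8.82 and 8.70 in lean livers, also with no overlap (0.64 ± 0.17, 1.56-fold, adjusted p = 0.0410). As for Hmox1, the share of all probes with no overlap was not counted. The first, the brightest, had 10.1, 8.86, 9.20 and 9.54 in obese livers, against 10.2, 9.90, 10.1 and 9.76 in lean livers, and ran the other way without passing (-0.58 ± 0.25, adjusted p = 0.158). Under TU the second probe had 9.72, 9.57, 9.29 and 9.49 in obese livers, against 9.06, 9.28, 9.10 and 8.85 in lean livers (0.45 ± 0.12, adjusted p = 0.0317). The third stood at 0.45 ± 0.21 (adjusted p = 0.176) and the first at -0.66 ± 0.23 (adjusted p = 0.0777). No direction can therefore be given for Txnrd1 as a gene.

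The Txnrd1 calls were sensitive to single arrays. The vehicle call of the second probe was lost without lean replicates 1, 2 or 4 or obese replicate 4 (adjusted p = 0.0830, 0.0733, 0.0838 and 0.0611). That of the third was lost without lean replicates 1 to 4 (0.112, 0.0920, 0.0866 and 0.104) or obese replicate 1 (0.0631). Under TU the second probe lost its call without lean replicates 1, 3 or 4 (0.0780, 0.0708 and 0.0790) or obese replicates 2 or 4 (0.0730 and 0.0631). Without obese replicate 1, the obese array with the highest level of the first probe, that probe was called lower under TU (-0.88, adjusted p = 0.00470) and under vehicle (-0.80, adjusted p = 0.0255). From the scanner software's processed signals the third was called higher under TU (1.07, adjusted p = 0.00182) and the second was not (0.56, adjusted p = 0.0749).

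**Figure D2:**
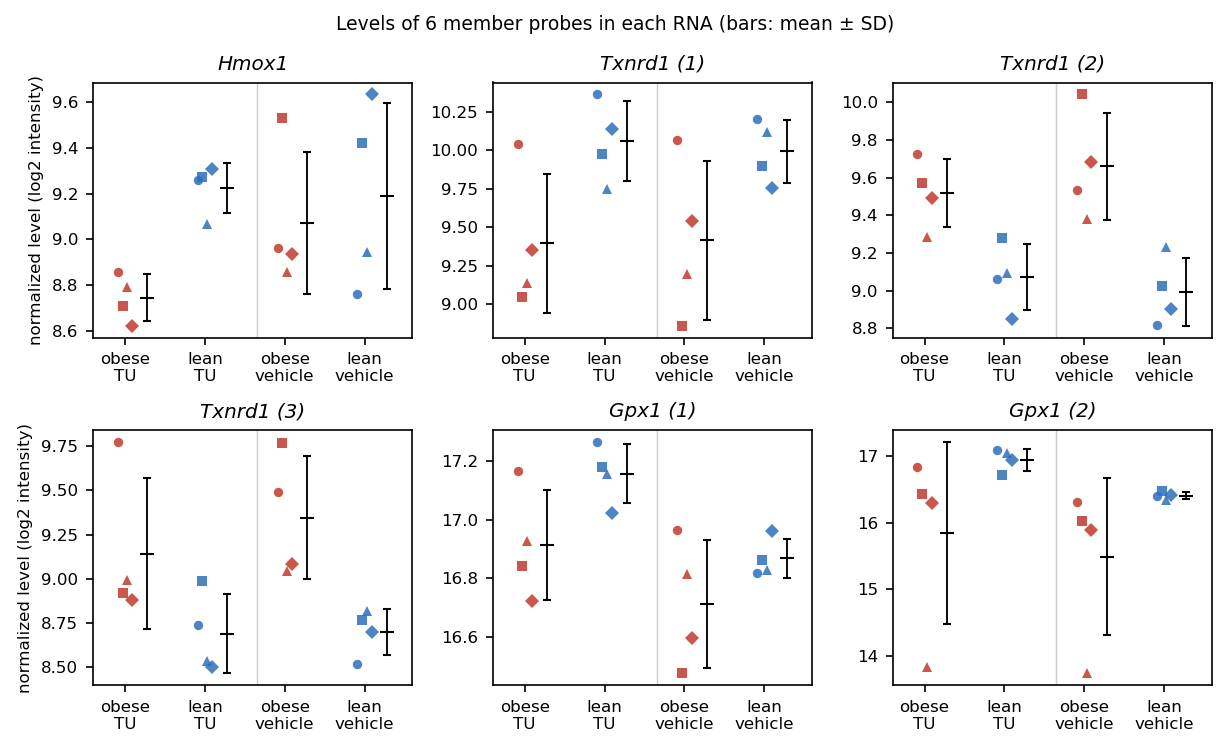
Normalized log2 intensity (y axis) of Hmox1, the 3 Txnrd1 probes and the 2 Gpx1 probes in each RNA, obese in red and lean in blue, with the marker shape giving the replicate (circle 1, square 2, triangle 3, diamond 4) and the bar the mean ± SD of 4 samples. Hmox1 separates obese from lean under TU but not under vehicle, the second and the third Txnrd1 probes run opposite to the first, and obese replicate 3 lies apart for the second Gpx1 probe at 13.8 and 13.7.

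For Gpx1 the second probe stood at -1.10 ± 0.60 under TU and -0.92 ± 0.53 under vehicle (adjusted p = 0.238 and 0.272). Its TU levels were 16.8, 16.4, 13.8 and 16.3 in obese livers, against 17.1, 16.7, 17.1 and 16.9 in lean livers. Obese replicate 3 was low in both channels of 1 spot, and without it the differences were -0.42 under TU (adjusted p = 0.106) and -0.34 under vehicle (adjusted p = 0.0753). The first Gpx1 probe, where obese replicate 3 did not stand apart, was at -0.24 ± 0.10 and -0.16 ± 0.11 (adjusted p = 0.134 and 0.367). Without obese replicate 1 it was called lower under TU (-0.33, adjusted p = 0.0172).

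Nqo1 averaged 7.10 ± 0.085 in obese TU, 7.07 ± 0.052 in lean TU, 7.19 ± 0.041 in obese vehicle and 7.04 ± 0.048 in lean vehicle (SD, n = 4 each). The order from high to low was obese vehicle, obese TU, lean TU and lean vehicle, and neighbours differed by less than the larger of their SDs. Its vehicle levels of 7.13, 7.23, 7.18 and 7.20 in obese livers lay above 7.09, 7.04, 6.98 and 7.07 in lean livers without overlap, by 0.14 ± 0.048 (adjusted p = 0.0851). Here too the share of all probes without overlap was not counted. Under TU the groups overlapped (0.029 ± 0.060, adjusted p = 0.778). The glutathione genes did not pass in either channel, with Gclc at 0.13 ± 0.13 under TU and 0.31 ± 0.13 under vehicle, and Gclm at 0.051 ± 0.065 and 0.027 ± 0.078. Srxn1 stood at -0.22 ± 0.080 under TU (adjusted p = 0.0925) and -0.20 ± 0.096 under vehicle (adjusted p = 0.193). Without obese replicate 1 Srxn1 was called lower in both, at -0.29 under TU (adjusted p = 0.00759) and -0.28 under vehicle (adjusted p = 0.0316). Cat averaged 12.7 ± 0.22 in obese TU, 12.7 ± 0.17 in lean TU, 13.2 ± 0.61 in obese vehicle and 12.8 ± 0.11 in lean vehicle, and obese replicate 2 alone reached 14.1 under vehicle. Cat stood at -0.0045 ± 0.13 under TU and 0.39 ± 0.28 under vehicle, and without that array the vehicle value was 0.084. The Sod1 probes ran from -0.059 to 0.23 over both channels, with none past the threshold.

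The 5 named genes whose 16 single-channel levels (8 arrays, 2 channels) ran closest to those of Nqo1 were Acvr1c (Pearson r = 0.897), Galc (0.885), Cr1l (0.861), Fn3krp (0.851) and Pde8a (0.847), each by its brightest probe. The closest of the other 8 members was Cat at 0.560, and Srxn1 was the lowest at -0.582. The 16 values share arrays, slides and dyes, and the Nqo1 values span few log2 units, so these are descriptions.

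The other genes of the pathway were taken from a list of 56, of which 52 were measured. Maff and Slc7a11 were on the array and did not pass the filter, and Pgd and Selenop had no named probe. TU called none of the 52 in either genotype. In obese liver 37 of 52 lay below 0 with a median of -0.17, against a median of -0.0096 over all probes, of which 53.9% lay below 0. At an unadjusted p under 0.05 there were 18, 4 above and 14 below 0, where 12.7% of all probes had one. Without obese replicate 2 that number was 17, where 1822 of 26959 probes had one. The median and the signs of the 52 were not taken again. Keap1, Gsr and Gpx4 shrank in size without that array, as given below, while Me1 changed little (-1.50). In lean liver 27 lay below 0 with a median of -0.0043, against -0.019 over all probes, of which 57.8% lay below 0. There 11 had an unadjusted p under 0.05, 6 above and 5 below 0, where 14.9% of all probes had one. Among the regulators, Nfe2l2 itself stood at -0.64 ± 0.14 in lean liver (adjusted p = 0.147), with all 4 arrays below 0 at -1.06, -0.86, -0.33 and -0.32. In obese liver its fit used replicate 3 alone (-0.42), since its spots on the other 3 obese arrays were marked as non-uniform. Keap1 stood at -0.29 ± 0.15 in obese and -0.13 ± 0.15 in lean liver, and the obese value was -0.046 without replicate 2.

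NADPH, which both glutathione reductase and thioredoxin reductase consume, is supplied in part by malic enzyme, encoded by Me1. Me1 had ratios of -2.59, -1.64, -1.30 and -0.60 in obese liver and -0.55, -1.35, -0.083 and 0.065 in lean liver. The means were -1.53 ± 0.31 in obese (adjusted p = 0.226) and -0.48 ± 0.31 in lean liver. All 4 obese arrays lay below 0, and neither mean passed. The other Me1 probe stood at -0.999 ± 0.26 in obese and -0.11 ± 0.26 in lean liver (adjusted p = 0.323 and 0.895). Gsr, glutathione reductase, stood at -0.18 ± 0.11 in obese and 0.066 ± 0.11 in lean liver, Gpx4, which reduces lipid peroxides, at -0.15 ± 0.10 and 0.035 ± 0.10, mitochondrial Sod2 at -0.034 ± 0.067 and 0.17 ± 0.067, and Prdx1 at 0.035 ± 0.098 and -0.25 ± 0.098. Without obese replicate 2 the obese values were -0.014 for Gsr, -0.032 for Gpx4, 0.014 for Sod2 and -0.11 for Prdx1.

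Between obese and lean liver, 14 of the 52 were called under TU, 9 higher and 5 lower, and 10 under vehicle, 8 higher and 2 lower. These shares of 26.9% and 19.2% lie near those of all probes, 20.7% under TU and 15.3% under vehicle. Without obese replicate 1 the counts were 24 and 18, and without any 1 of the lean arrays the vehicle count was 6. Thioredoxins and peroxiredoxins, which pass electrons to peroxides, gave 5 of 10 higher and none lower in each channel, where 12.1% of all probes were called higher under TU and 8.19% under vehicle. Of the 5 under TU, Txnrd2 lost its call without any 1 of the 8 arrays (adjusted p from 0.0515 to 0.0991). It also lost it from the processed signals (0.27, adjusted p = 0.187). Of the 5 under vehicle, Txn1 and Txn2 lost theirs without any 1 of the lean arrays, and Txn2 also without obese replicate 4 (adjusted p from 0.0553 to 0.0809). From the processed signals Txn1 was not called under vehicle (0.084, adjusted p = 0.747). Prdx6 was higher by 0.87 ± 0.10 under TU (adjusted p = 0.00141) and 1.04 ± 0.12 under vehicle (2.05-fold, adjusted p = 0.00251). Prdx4, of the endoplasmic reticulum, was higher by 0.87 ± 0.15 and 0.94 ± 0.089, and mitochondrial Prdx3 by 0.74 ± 0.076 and 0.81 ± 0.096. Prdx1 was higher under TU (0.55 ± 0.11, adjusted p = 0.0113) and stood at 0.27 ± 0.18 under vehicle (adjusted p = 0.347), and from the processed signals it was not called under TU (0.33, adjusted p = 0.133). Prdx3 levels under vehicle were 12.3, 12.4, 12.4 and 12.1 in obese livers, against 11.4, 11.4, 11.5 and 11.6 in lean livers, with no overlap. How common this was over all probes was not counted.

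Of 6 measured genes of glutathione synthesis and recycling, 1 was called in each channel (16.7%), near the 20.7% of all probes under TU and 15.3% under vehicle. Gss, which completes glutathione after the step of Gclc and Gclm, was higher by 0.86 ± 0.18 under TU (adjusted p = 0.0137) and 1.22 ± 0.32 under vehicle (2.32-fold, adjusted p = 0.0419). Gsr stood at 0.12 ± 0.50 under TU and 0.37 ± 0.57 under vehicle, Gpx4 at -0.20 ± 0.13 and -0.010 ± 0.16, and Sod2 at -0.28 ± 0.10 and -0.072 ± 0.080. Me1 stood at 0.28 ± 0.40 under TU and 1.34 ± 0.40 under vehicle (adjusted p = 0.663 and 0.0643). Its other probe stood higher, at 1.42 ± 0.46 under TU (adjusted p = 0.0632), and was called under vehicle (2.31 ± 0.23, adjusted p = 0.00132). The vehicle call of Gss was lost without lean replicates 1 to 4 or obese replicates 1, 2 or 4 (adjusted p from 0.0536 to 0.110).

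Of 5 measured genes of iron and haem, 1 was called higher and 2 lower under TU (60%). Under vehicle 1 was called higher and 1 lower (40%). Of all probes 20.7% were called under TU and 15.3% under vehicle. Fth1, the ferritin heavy chain, was higher by 0.996 ± 0.11 under TU (adjusted p = 0.00120) and 0.90 ± 0.23 under vehicle (adjusted p = 0.0408), and its other probe gave 0.998 and 0.99, both called. The vehicle call of the first probe was lost without lean replicates 1 to 4 or obese replicate 4 (adjusted p from 0.0758 to 0.110), and from the processed signals it was called in neither (adjusted p = 0.0520 under TU and 0.129 under vehicle). The brightest probe of the ferritin light chain Ftl1 was lower, at -0.93 ± 0.081 under TU and -0.84 ± 0.077 under vehicle. Its other 3 probes gave 0.38, 0.86 and -0.87 under TU and 0.66, 1.16 and -0.50 under vehicle, so no direction can be given for Ftl1. Hmox2, the constitutive haem oxygenase, was lower under TU (-0.71 ± 0.15, adjusted p = 0.0128) and stood at -0.22 ± 0.073 under vehicle (adjusted p = 0.0779). Its other probe was not called, at -1.43 ± 0.75 under TU and -1.17 ± 0.78 under vehicle (adjusted p = 0.221 and 0.349). Aox1, an aldehyde oxidase, was lower, at -0.70 ± 0.14 under TU and -0.88 ± 0.13 under vehicle (adjusted p = 0.0107 and 0.00609). Keap1 stood at 0.24 ± 0.20 under TU and 0.40 ± 0.24 under vehicle, and Nfe2l2, from 1 obese array, at 0.53 ± 0.35 and 0.30 ± 0.14. In this comparison the pathway genes had a median of 0.061 under TU and 0.17 under vehicle, against 0.023 and 0.017 over all probes.

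**Figure D3:**
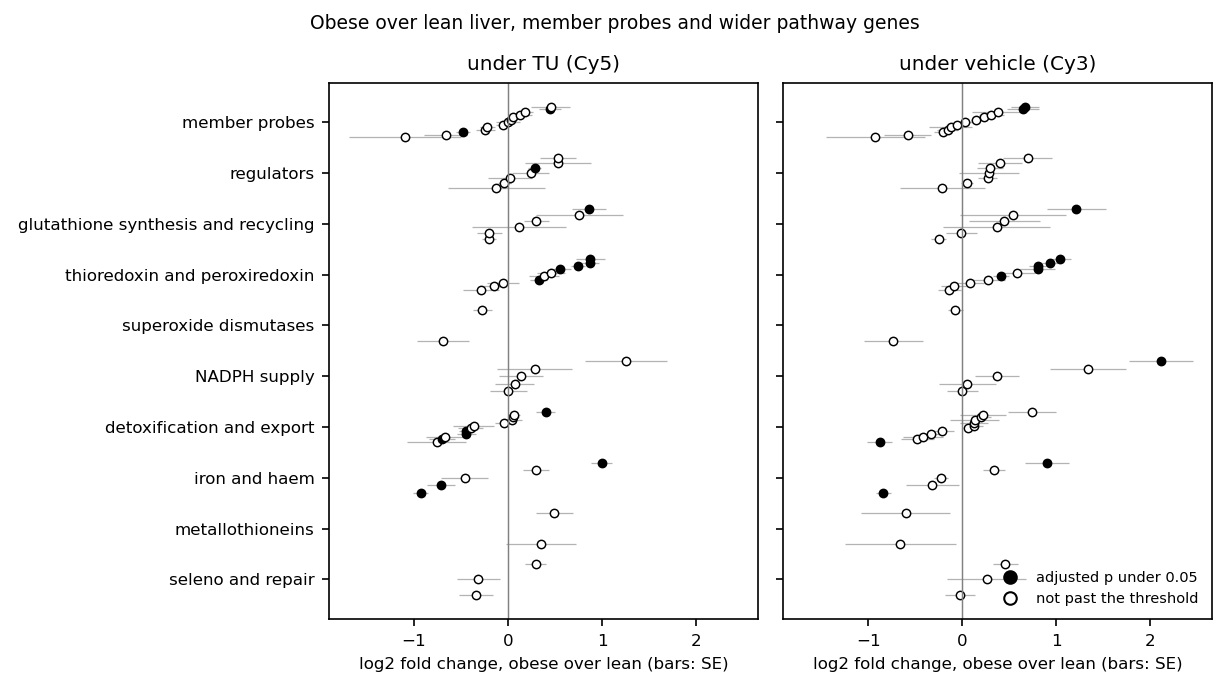
Log2 fold change of obese over lean liver (x axis, bars are SE) under TU and under vehicle for the 13 probes of the 9 genes (top row) and for 52 other pathway genes grouped by role, with filled points past an adjusted p of 0.05. The thioredoxin and peroxiredoxin group has 5 of 10 filled points, all above 0, in each panel, and Prdx6 is its rightmost point under vehicle at 1.04.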

How the data were processed

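The 8 scanner files were made with Agilent Feature Extraction 10.7.3.1 and give, for Cy5 and Cy3, the median intensity of each spot and of its local background, per the file headers. The same software computed the processed, dye-normalized intensities and the log10 ratios that were deposited beside them. The deposited flags mark spots well above background, saturated, non-uniform or control, per the file headers. A table of log2 ratios was also deposited by the authors, with scale and normalization unstated. Base and direction were found from the slope on the log10 ratio (3.33 to 3.38) and the column medians were 0.0459 to 0.139. No column was left unmapped.

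Controls and non-uniform spots were left out. Signals were corrected with normexp (offset 50) and normalized by loess in limma 3.58.1 (R 4.3.3), with Aquantile between arrays for single channels. The 26965 passing probes were tested with lmFit and eBayes on all arrays, and p-values were adjusted by Benjamini-Hochberg over all of them, with a threshold of 0.05. TU responses were fitted as 1 mean per genotype. The code was tested on simulated data. Gene names come from the array's newer annotation (16815 probes) or the older one alone (195), and 24002 probes had none. A gene outside the 9 is given by its brightest passing probe. The text names at most 8 called pathway genes per comparison, by size, and always Nfe2l2, Keap1, Gsr, Sod2, Gpx4, Prdx1 and Me1, and 1 further gene that this rule takes is counted in its list but not reported here. Other genes named, such as macrophage markers, were chosen after their values were seen. The members and lists were chosen with earlier results of these data known. The number of arrays limits the precision. Same-numbered arrays of the genotypes were not taken as pairs.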

Additional observations from a re-analysis of the deposited data

Results flagged for a closer look

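Among 78 groups of 4 samples, 7 held a value that stood apart from the other 3 by Dixon's test (the gap to the nearest other value over the whole range), where chance gives about 1 in 20. In obese TU livers replicate 1 was apart for Gclm, at a log2 level of 6.93 against 7.07 to 7.09, and for the third Txnrd1 probe, at 9.78 against 8.88 to 8.995. In obese vehicle livers replicate 2 was apart for Hmox1, at 9.53 against 8.86 to 8.96, and replicate 3 for the second Gpx1 probe, at 13.7 against 15.9 to 16.3. In lean vehicle livers replicate 1 was apart for Cat, at 12.96 against 12.72 to 12.74. The lean log2 ratio of replicate 3 was apart for both Sod1 probes, at 0.58 against 0.097 to 0.18 and at 0.50 against 0.12 to 0.17.

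The obese minus lean response of Nqo1 (-0.11) is given here because, after loess, all 4 obese arrays lay below 0 and all 4 lean arrays above it. The probe is dim. Before normalization its lean TU signals over background were 26.5, 34, 29.5 and 26, against 35.5, 44, 32.5 and 41 under vehicle. With median centring the lean mean was -0.042. The test of the difference itself did not pass (limma, adjusted p = 0.70).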

How the results depend on the processing

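No value of the 9 genes or of the named pathway genes changed sign while called. In obese liver and for the obese minus lean response, the count of TU calls stayed 0 under every alternative run. In lean liver it was 0, and it was 1 with median centring, without background correction and from the lean arrays alone, and 0 to 2 without 1 array. Under vehicle the count of 2 was 0 with no normalization between arrays, with the replicate number as a block and with the brightest probe per gene, 1 without a filter and 0 to 3 without 1 array. Under TU the count of 2 was 0 with no normalization between arrays, 1 with the brightest probe per gene and 1 to 5 without 1 array. The brightest-probe setting leaves out the second and the third Txnrd1 probes, so its lower counts follow from that choice of probes. Of the wider pathway, for which alternatives were added after seeing the data, 14 genes were called, all lower, in lean liver with median centring and 0 to 2 without 1 array, 0 without between-array normalization in both channels, 5 (block) and 6 to 18 under vehicle, and 11 to 24 under TU. Same-numbered arrays did not deviate together (r = 0.059, -0.10, 0.16 and -0.013), so the block is given only here, and with it both Txnrd1 calls under vehicle were lost (adjusted p = 0.0720 and 0.0861), while under TU the first Txnrd1 probe was called lower (-0.66, adjusted p = 0.0182) and the count was 3. Processed signals also gave 3 under TU, with Srxn1 called lower (-0.55, adjusted p = 0.0175). Over all probes, the 3 TU calls in obese liver were 209 with processed signals, 203 with the authors' ratios, 23 without background correction, 0 with median centring, scaling between arrays, trend and robust fitting, the block or obese arrays alone, and 0 to 2 without 1 array. The 51 in lean liver were 6583 with median centring, 276 with processed signals, 278 with the authors' ratios, 322 without background correction, 0 with scaling or with trend and robust fitting, 33 without a filter, 22 with the block, 312 from lean arrays alone and 1 to 1194 without 1 array. The 1 call for the difference was 0 to 3. Between genotypes the 5564 calls under TU and 4109 under vehicle were 8869 and 6887 with processed signals, 0 and 0 without between-array normalization, 5258 and 1694 with the block, and 3565 to 8579 and 1743 to 5718 without 1 array. The causes were not tested. Dim probes (Nqo1, Gclm, Srxn1) and 4 arrays a genotype limit what could be detected.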

Other observations

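The metallothioneins Mt1 and Mt2A, which bind zinc and copper, had TU ratios as large as any in the wider pathway list. They were singled out after their values were seen. Mt1 had log2 ratios of 3.35, 2.94, 1.06 and 0.62 on the obese arrays and 0.98, 1.18, 0.98 and 0.25 on the lean arrays. All 8 lay above 0, and the means of 2.00 ± 0.42 in obese and 0.85 ± 0.42 in lean liver did not pass (limma, adjusted p = 0.227 and 0.388). The TU levels of Mt1 were 16.9, 16.8, 17.01 and 16.6 in obese livers, against 16.8, 16.6, 16.03 and 15.99 in lean livers, while the vehicle levels were 13.6, 13.9, 15.9 and 15.98 in obese livers, against 15.8, 15.5, 15.1 and 15.7 in lean livers. Obese replicates 1 and 2 thus had the lowest vehicle levels. Mt2A had ratios of 3.07, 2.36, 0.86 and 0.40 on the obese arrays and 1.14, 1.11, 0.64 and -0.011 on the lean arrays, with means of 1.67 ± 0.40 and 0.72 ± 0.40 (adjusted p = 0.296 and 0.457). The obese minus lean differences were 1.15 ± 0.59 for Mt1 and 0.95 ± 0.57 for Mt2A, and neither passed (adjusted p = 0.677 and 0.701).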
